A study of Mus musculus with 96 samples.

Results

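Collagen chain genes encode the polypeptides that assemble into collagens, the main structural proteins of the extracellular matrix. They were taken as every gene symbol of the form Col, number, a, number, each represented by its transcript of highest mean. The rule found 44 chains, with 61 transcripts, among the 25095 gene symbols of each of 4 expression tables. Values are RPKTM, reads per kilobase of transcript scaled to a library size 10 times that of RPKM, after quantile normalization within a table. A chain was tested where at least 3 libraries of the table exceeded 5 RPKTM. Levels were compared only within a table, because each table had been normalized on its own.

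The study asked whether the hepatocyte clock acts on other liver cells through SREBP, the lipid-regulating transcription factors that SCAP escorts to their activation. RNA was sequenced from 96 libraries of isolated hepatocytes and liver macrophages, 3 for each genotype, cell type and zeitgeber time (ZT, hours after lights on), which was ZT4, ZT10, ZT16 or ZT22. All mice were male C57BL/6J with floxed alleles, were injected with a virus whose hepatocyte-specific promoter drove either GFP (Control) or Cre recombinase, and ate a high fat and sucrose diet (D12492i) for 4 weeks. In RevDKO mice Cre deleted Nr1d1 and Nr1d2, the genes of the REV-ERB nuclear receptors that repress clock output. In RevScapTKO mice it also deleted Scap, and in ScapKO mice Scap alone. The deletion was aimed at hepatocytes only, so the macrophages of every group were meant to keep the genes. Both cell types came from livers perfused with collagenase, and nothing in the preparation removed every other liver cell. The 36 libraries of Control, RevDKO and RevScapTKO formed 1 table for each cell type, and the 12 ScapKO libraries formed another, so that ScapKO could not be compared with Control by a test.

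Collagen chains are secreted as helical trimers of the same or of different chains, and each family builds its own kind of structure. Fibrillar collagens give tissue its tensile strength, FACIT chains sit on fibril surfaces, basement membrane chains (type IV) form sheets under cells, beaded filament chains (type VI) link cells to the matrix, and multiplexins carry glycan chains and release fragments such as endostatin. In liver, hepatic stellate cells are the best known source of fibrillar collagen in fibrosis and endothelial cells make basement membrane chains, whereas Col18a1, the precursor of endostatin, is made by hepatocytes.

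The sequences upstream of 5 chains are shown because the report turns on them. Col27a1, Col5a3 and Col6a5 differed between genotypes in both cell types, and in hepatocytes their slopes on stellate markers missed the threshold, while those of Col3a1 and Col1a2 passed it. Each is the stretch of 250 bases that ends at the transcript start, read 5′ to 3′ on the strand of the gene, from RefSeq on GRCm38.p6. Capitals mark matches, on either strand, to 4 short motifs: AGGTCA, the hexamer at the core of REV-ERB and other nuclear receptor sites, CACGTG, the E-box read by clock activators, CCAAT and TATAAA. No matches overlapped in these 5 stretches. They lie at chr4:63215162-63215411 on the plus strand for Col27a1, at chr9:20815068-20815317 on the minus strand for Col5a3, at chr9:105960644-105960893 on the minus strand for Col6a5, at chr1:45311288-45311537 on the plus strand for Col3a1 and at chr6:4505368-4505617 on the plus strand for Col1a2.
Col27a1: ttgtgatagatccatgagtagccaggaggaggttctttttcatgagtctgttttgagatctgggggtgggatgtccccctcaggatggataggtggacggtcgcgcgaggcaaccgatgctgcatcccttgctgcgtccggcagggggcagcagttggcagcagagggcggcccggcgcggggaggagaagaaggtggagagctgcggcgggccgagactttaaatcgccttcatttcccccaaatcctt
Col5a3: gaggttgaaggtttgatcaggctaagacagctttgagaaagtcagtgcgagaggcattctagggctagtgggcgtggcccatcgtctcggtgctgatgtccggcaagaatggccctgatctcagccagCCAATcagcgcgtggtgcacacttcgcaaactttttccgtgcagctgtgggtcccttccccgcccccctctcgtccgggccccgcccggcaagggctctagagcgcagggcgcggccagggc
Col6a5: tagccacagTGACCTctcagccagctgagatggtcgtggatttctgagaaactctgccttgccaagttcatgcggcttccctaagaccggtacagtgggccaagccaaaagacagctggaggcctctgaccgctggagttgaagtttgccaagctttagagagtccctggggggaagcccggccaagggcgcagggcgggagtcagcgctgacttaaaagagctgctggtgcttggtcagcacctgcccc
Col3a1: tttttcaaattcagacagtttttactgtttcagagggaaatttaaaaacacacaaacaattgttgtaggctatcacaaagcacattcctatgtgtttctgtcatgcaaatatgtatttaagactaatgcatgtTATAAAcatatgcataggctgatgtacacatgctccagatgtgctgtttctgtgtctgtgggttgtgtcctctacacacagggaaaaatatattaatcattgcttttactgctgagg
Col1a2: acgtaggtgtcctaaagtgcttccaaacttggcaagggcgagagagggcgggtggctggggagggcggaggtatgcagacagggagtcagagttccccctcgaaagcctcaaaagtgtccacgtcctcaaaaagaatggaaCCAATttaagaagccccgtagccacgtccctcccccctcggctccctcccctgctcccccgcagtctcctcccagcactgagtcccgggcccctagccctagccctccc

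The stretch before Col27a1 held none of the 4 motifs, which says only that these letters are not in this window. AGGTCA lay on the opposite strand with its first base 241 bases before the Col6a5 start, CCAAT 122 bases before the Col5a3 start and 109 bases before the Col1a2 start, and TATAAA 117 bases before the Col3a1 start. Promoter entries existed for 35 of the 44 chains, in 38 windows, and Col12a1, Col14a1, Col1a1, Col22a1, Col26a1, Col2a1, Col4a3, Col5a2 and Col9a3 had none. AGGTCA was present in 21.1% of the chain windows and in 14% of all 32851 windows (4607), CCAAT in 34.2% and 33.8%, TATAAA in 13.2% and 12.4%, and CACGTG in 0 of 38 and 6.02%. These matches are descriptions of the sequence and not binding sites.

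Several libraries stood apart. In the hepatocyte table Nr1d1 had a mean of 90.72 RPKTM in Control against 137.7 in RevDKO and 140.3 in RevScapTKO, and Nr1d2 averaged 228.3, 312.2 and 352.5, so neither targeted clock gene was lower in the libraries labelled RevDKO or RevScapTKO (whole transcripts were counted, so these values do not check a deletion of part of the gene). Scap averaged 495.0, 536.5 and 209.3. The hepatocyte marker Alb was far higher in 3 libraries of the macrophage table than in the rest (Control ZT22 replicate 1, Control ZT16 replicate 1 and RevScapTKO ZT22 replicate 3). Over 12 hepatocyte markers, however, their mean log2(RPKTM + 1) was 11.12, 11.16 and 11.35, within the range of 9.45 to 11.66 in that table. In the ScapKO macrophage table the ZT22 replicate 2 library had a summed stellate marker level of 11630 RPKTM against 3483 in the next library, and the ZT22 replicate 2 library of ScapKO hepatocytes had 5868 against 2985. In the ScapKO hepatocyte library of ZT16 replicate 3, Xist stood at 130.0 RPKTM against a median of 6.08. Sequencing depth is unknown, since quantile normalization gave every library of a table the same set of values, and precision therefore rests on the spread between libraries. The study's methods call the libraries biological replicates, without tying a library to a mouse.

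Most chains were measurable in every preparation, and 1 chain dominated. Of the 44 chains 28 passed the filter in the hepatocyte table (63.6%, against 53.1% of all genes), and 32 did in the macrophage table (72.7% against 55.6%). Among ScapKO libraries 24 passed in hepatocytes (54.5% against 50.7%) and 30 in macrophages (68.2% against 55.5%). In all, 23 chains passed in all 4 tables, 11 in some and 10 in none. The 10 that never passed were Col11a1, Col17a1, Col19a1, Col22a1, Col26a1, Col28a1, Col2a1, Col4a6, Col8a2 and Col9a1, chains known from cartilage, skin and other tissues as well as minor type IV and VIII chains, and their highest values in any library ran from 1.22 RPKTM for Col11a1 to 8.68 for Col4a6. In the hepatocyte table Col6a4, Col9a2, Col9a3, Col8a1, Col23a1 and Col7a1 also fell short, with highest values of 0.258 for Col6a4 to 7.65 for Col7a1. Col7a1, Col8a1, Col9a2 and Col9a3 passed in the macrophage table but not in the hepatocyte table, and there Col23a1 and Col6a4 fell short with highest values of 11.7 and 6.66 RPKTM. In the ScapKO hepatocyte table Col24a1, Col11a2, Col6a6 and Col4a4 also missed the filter, with highest values of 13.6, 6.94, 5.53 and 3.24 RPKTM, and in the ScapKO macrophage table Col6a6, Col8a1, Col25a1 and Col9a2 did, with 9.84, 7.62, 4.51 and 2.92 RPKTM.

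Col18a1 (NM_001109991, mm9 chr10:76514924-76576450, minus strand) was the highest chain in all 4 tables. It took 81.8% of the summed chain level in the hepatocyte table and 52.3% in the macrophage table, and 83.6% and 44.6% in the ScapKO tables. In the hepatocyte table it ran from 2952 to 10500 RPKTM with a median of 5512, which ranked it 61st among all genes by mean. The next chains were the FACIT chain Col14a1 with a mean of 259.1 RPKTM, the fibrillar chain Col5a3 with 229.6, the basement membrane chain Col4a1 with 157.7, the fibrillar chain Col27a1 with 132.0 and Col4a2 with 104.2. The macrophage table was led by Col18a1 with a mean of 2517 RPKTM, Col5a3 with 595.4, Col4a1 with 258.4, Col27a1 with 238.4, Col14a1 with 220.4 and Col5a1 with 177.6. Apart from Col18a1, ranges of neighbours in the order overlapped in every table, as the plot of the leading chains shows. The median passing chain was lower than the median tested gene in the hepatocyte table (14.8 against 45.0 RPKTM) and about level with it in the macrophage table (21.3 against 21.2).

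**Figure D1:**
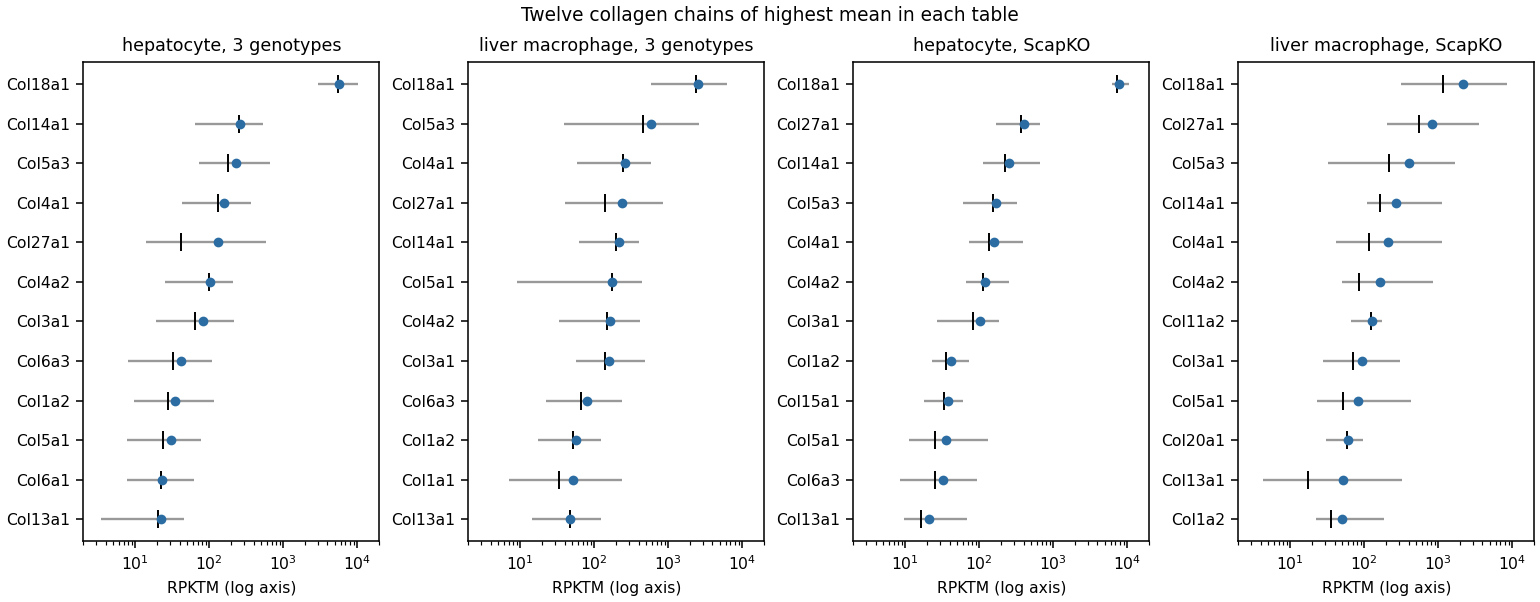
The 12 collagen chains of highest mean in each of the 4 tables, with RPKTM on a log axis, grey lines from the lowest to the highest library, ticks at the median and points at the mean. Col18a1 leads every table, with means of 5699, 2517, 7783 and 2151 RPKTM, and the order of the other chains differs between tables.

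Col27a1 was the chain that differed most between the libraries labelled RevDKO and Control in hepatocytes. Col27a1 (NM_025685, mm9 chr4:62876446-62996024, plus strand, with the microRNA gene Mir455 inside it) encodes a fibrillar chain known mainly from cartilage. Its hepatocyte level was 123.5 to 591.5 RPKTM in the 12 Control libraries (median 297.7), 13.89 to 71.85 in the 12 RevDKO libraries (median 37.46) and 14.4 to 148.5 in the 12 RevScapTKO libraries (median 26.14). Every RevDKO library lay below every Control library, whereas 1 RevScapTKO library, at ZT22, reached into the Control range. The log2 difference of RevDKO minus Control was -3.04 ± 0.25 (SE), with an adjusted p of 4.72e-10 (limma with Benjamini-Hochberg adjustment over the 13326 tested genes; all adjusted p-values here were made so, over the genes tested in the table concerned). All 12 libraries of RevDKO lay below all 12 of Control for 0.203% of genes. The difference was negative at all 4 time points, from -2.12 at ZT4 to -4.04 at ZT10. RevScapTKO minus RevDKO was -0.07 ± 0.25 with a 95% interval from -0.59 to 0.44 and an adjusted p of 0.863, and RevScapTKO minus Control was -3.11 ± 0.25 (adjusted p 3.94e-11).

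Of the 28 chains tested, 4 passed the threshold for RevDKO minus Control in hepatocytes, 1 higher and 3 lower, where 4.43% of all genes passed, 2% higher and 2.43% lower. The chain that rose was Col5a3 (NM_016919, mm9 chr9:20574501-20619511, minus strand), a minor type V chain that joins fibrils. It ran from 72.74 to 193.9 RPKTM in Control (median 106.9), from 138.7 to 350.3 in RevDKO (median 183.4) and from 144.5 to 666.5 in RevScapTKO (median 348.6). Its groups overlapped, and RevDKO minus Control was 0.83 ± 0.16 (adjusted p 0.00104). Col15a1, a multiplexin of basement membranes, and Col12a1, a FACIT chain, were lower. Col15a1 ran from 7.425 to 39.38 RPKTM in Control (median 15.02) and from 2.601 to 16.36 in RevDKO (median 7.538), a difference of -0.95 ± 0.21 (adjusted p 0.00484). Col12a1 ran from 9.964 to 24.25 in Control (median 15.16) and from 3.37 to 13.2 in RevDKO (median 9.297), a difference of -0.80 ± 0.23 (adjusted p 0.0393), and both pairs of groups overlapped. The call for Col12a1 was the least firm, since it was lost in 14 of the 36 fits that left out 1 library (adjusted p up to 0.0905). A pseudocount of 0.1 (adjusted p 0.05025) and no filter on low values (adjusted p 0.08134) lost it as well.

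The other chains of this contrast differed little. The median difference over the 28 chains was 0.14 log2 against -0.01 over all genes, and 21 of 28 were above 0. Col18a1 was 4180 to 8155 RPKTM in Control (median 5170), 2952 to 7810 in RevDKO (median 6480) and 3761 to 10500 in RevScapTKO (median 5412), with largely shared ranges. Its RevDKO minus Control difference was 0.05 ± 0.15, with a 95% interval from -0.26 to 0.36. The stellate markers did not pass the threshold here, 0 of 14, nor did the 13 endothelial or the 12 macrophage markers. The cholangiocyte marker Sox9 was higher in RevDKO by 1.02 (adjusted p 9.08e-07), and its part in the chain differences was not tested beyond the fit with the cholangiocyte score given below. The summed stellate level was 542 to 3064 RPKTM in Control (median 1319) and 1015 to 2761 in RevDKO (median 1721).

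**Figure D2:**
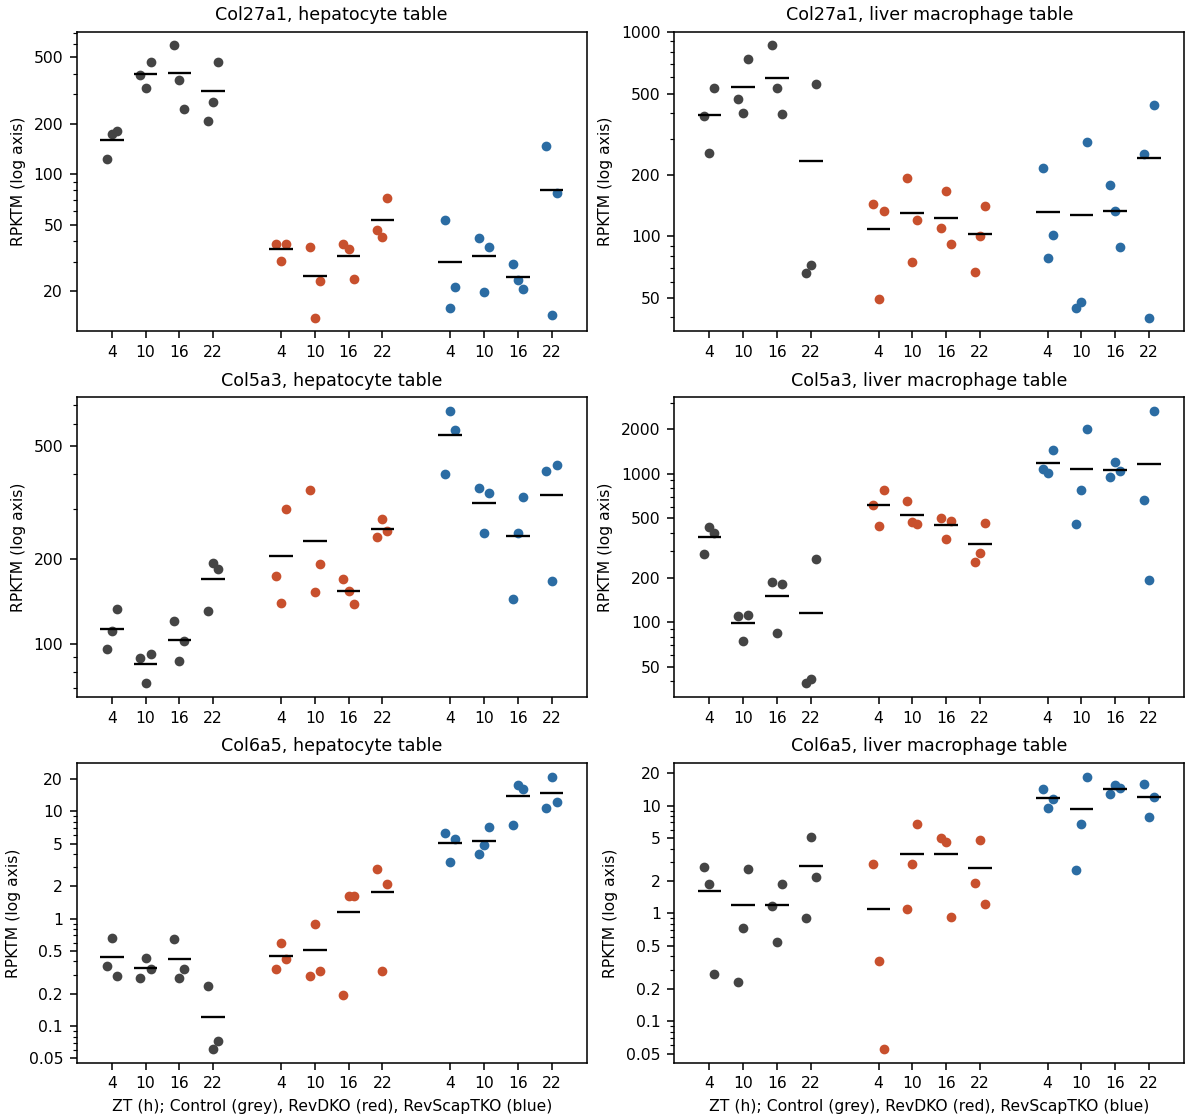
Col27a1, Col5a3 and Col6a5 in each library of the hepatocyte and macrophage tables (RPKTM, log axes), by genotype and ZT in hours, with points for the 3 libraries and lines for their mean. All 12 RevDKO hepatocyte libraries lie below all Control libraries for Col27a1. All 12 RevScapTKO hepatocyte libraries lie above both other genotypes for Col6a5, which passed the filter there through RevScapTKO alone.

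Fibrillar and beaded filament chains were higher in RevScapTKO than in RevDKO hepatocyte libraries. For this contrast 11 chains were higher and 1 lower of the 28 tested, where 26.2% of all genes passed in either direction 13.5% higher and 12.7% lower. Of the 5 beaded filament chains tested, Col6a1, Col6a2 and Col6a3 rose. Col6a6 rose too, but it exceeded 5 RPKTM in no RevDKO library, so RevDKO gave it no entry to the test. Col6a5, which entered the test only through RevScapTKO and so had to differ, also rose. So did 5 of 9 fibrillar chains (median log2 difference 0.70) and 1 of 5 basement membrane chains. No FACIT chain of 4 and no multiplexin of 2 passed. The median over the 28 chains was 0.53 log2 against -0.03 over all genes. In the same libraries 10 of 14 stellate, 10 of 13 endothelial and 12 of 12 macrophage markers were higher and 4 of 12 hepatocyte markers lower. Of 9 cholangiocyte (bile duct cell) markers 2 were tested, of which Spp1 was higher by 1.58 (adjusted p 0.00023). The summed stellate level was 2137 to 4702 RPKTM in RevScapTKO (median 3763), which overlapped only in part with RevDKO. In such bulk libraries more cells of a type and more RNA per cell cannot be told apart, and the part of these cells in the chain differences was not tested at this step.

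Col6a5 (NM_001167923, mm9 chr9:105758400-105862974, minus strand), an alternative chain of type VI collagen, differed most. It ran from 0.061 to 0.658 RPKTM in Control (median 0.3155), from 0.193 to 2.902 in RevDKO (median 0.5105) and from 3.37 to 21.02 in RevScapTKO (median 7.304). Every RevScapTKO library lay above every other library, which for RevScapTKO over RevDKO was so for 0.0675% of genes. The log2 difference was 2.37 ± 0.22 (adjusted p 8.07e-10). Col6a5 passed the filter through RevScapTKO alone, where 9 of 12 libraries exceeded 5 RPKTM and none of the other 24 did, so that it could enter the test only by being higher there. Its log2 difference depends on the pseudocount, as all differences of low genes do. Its neighbour Col6a6, 27984 bases away on the same strand, ran from 0 to 4.184 RPKTM in RevDKO (median 1.899) and from 1.7 to 7.148 in RevScapTKO (median 3.158), a difference of 0.86 ± 0.31 (adjusted p 0.0406). That call was lost in 14 of 36 fits that left out 1 library, with adjusted p up to 0.0868. Col6a4, which lies beside them, did not pass the filter.

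The chains of type I and type III collagen, the bulk of scar matrix, were among those that rose. Col1a1 ran from 0 to 16.53 RPKTM in RevDKO (median 5.713) and from 3.753 to 59.12 in RevScapTKO (median 17.56), a difference of 1.81 ± 0.39 (adjusted p 0.00101). Col3a1 ran from 28.75 to 106.2 in RevDKO (median 47.15) and from 47.24 to 215.4 in RevScapTKO (median 152.7), a difference of 1.26 ± 0.21 (adjusted p 6.81e-05). Both pairs of groups overlapped. Col1a2, the partner of Col1a1 in type I trimers, rose by 1.07 ± 0.25 (adjusted p 0.00171), from a mean of 25.09 to 56.47 RPKTM. The main type VI chains Col6a1, Col6a2 and Col6a3 rose by 0.76, 1.04 and 1.05 (adjusted p 0.00433, 0.00246 and 0.000477). Col5a1, the main type V chain, rose by 0.71 (adjusted p 0.00481), Col5a3 by 0.70 (adjusted p 0.00174) and Col4a1 by 0.66 (adjusted p 0.0339). The Col4a1 call was lost in 8 of 36 fits that left out 1 library. It was also lost with no filter on low values (adjusted p 0.05635) and with only the 2 genotypes of the contrast in the fit (adjusted p 0.05085). Col25a1, a transmembrane collagen known from neurons, fell by 0.88 (adjusted p 0.0041). It reached 5 RPKTM in no RevScapTKO library, in 6 of RevDKO and in 4 of Control, so that it passed the filter through the other genotypes.

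Against Control, 12 chains were higher and 2 lower in RevScapTKO hepatocyte libraries, where 35.9% of all genes passed, 17.3% higher and 18.7% lower. All 12 RevScapTKO libraries lay above all 12 of Control for Col6a5 alone, as for 0.225% of genes. Col6a5 entered the test through RevScapTKO alone, so that it had to be higher here as well, and most genes behind that share were not picked so. This contrast shares its RevScapTKO libraries with the one above and its Control libraries with RevDKO minus Control. The lower chains were Col27a1, given above, and Col25a1 (-0.73 ± 0.22, adjusted p 0.0111). Col6a5 was higher by 2.83 ± 0.22 (adjusted p 8.8e-12), Col1a1 by 1.89 ± 0.39 (adjusted p 0.000388) and Col5a3 by 1.53 ± 0.16 (adjusted p 9.63e-09). Col6a3 was higher by 1.51, Col3a1 by 1.5, Col1a2 by 1.25, Col5a1 by 1.14, Col4a1 by 0.90, Col6a1 by 0.89, Col14a1 by 0.85 and Col6a2 by 0.77, with adjusted p from 2.44e-06 for Col6a3 to 0.0158 for Col6a2. Col4a2 also passed. The median over the 28 chains was 0.63 log2 against -0.04 over all genes.

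Chains were then separated by whether they moved with stellate markers among libraries of the same genotype and time point. The stellate score was the mean log2(RPKTM + 1) of 14 markers, none of them a collagen, among them the retinol esterifying enzyme gene Lrat and Reln, and its slope was estimated for every gene in the presence of a mean for each genotype and time point. All 14 markers passed the filter in the hepatocyte table, Lrat at 36.5 to 286.0 RPKTM and Reln at 73.3 to 2690 across the 36 libraries, so that RNA typical of stellate cells was present in every hepatocyte library. For 7 of 28 chains the slope was positive past the threshold, where 3.47% of genes had such a slope. The slopes were 1.66 for Col24a1, 1.62 for Col1a2, 1.51 for Col3a1, 1.4 for Col14a1, 1.37 for Col6a3, 1.2 for Col4a1 and 0.95 for Col5a1, in log2 units of the chain per unit of the score. Col24a1 averaged only 2.404 RPKTM over this table, so its slope rests on values near the floor. A slope near 1 means that the chain moved in step with the markers. The lowest adjusted p was 3.06e-06.

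The slopes of Col27a1, Col6a5 and Col18a1 missed the threshold in hepatocytes. The slope of Col27a1 was -0.09 ± 0.39 (adjusted p 0.925), that of Col6a5 0.04 ± 0.33 (adjusted p 0.964) and that of Col18a1 0.36 ± 0.22 (adjusted p 0.356). Col6a5 was at most 0.658 RPKTM in Control and 2.902 in RevDKO, near the floor, so those libraries could show little slope for it. Slopes of Col5a3 (0.53 ± 0.22, unadjusted p 0.0254 and adjusted p 0.169), Col1a1 (1.27 ± 0.55, adjusted p 0.176), Col15a1 (0.24 ± 0.32) and Col12a1 (0.49 ± 0.34) did not pass either. The endothelial score gave positive slopes for 9 chains, where 3.85% of genes had one, namely the same 7 with Col13a1 and Col4a2. Since all 7 stood among the 9, stellate and endothelial origin of these chains cannot be told apart by the scores. Markers of portal fibroblasts and smooth muscle, another source of collagen, summed to only 17.43 to 79.98 RPKTM, and 4 of 10 passed the filter. No chain passed on that score in hepatocytes, where 0% of genes did, and at an unadjusted p under 0.05 there were 3. For slopes the share of all genes at that unadjusted cut was not computed, so such counts do not set the chains apart. The macrophage score gave positive slopes for 7 chains (5.99% of genes), which were Col14a1, Col1a1, Col1a2, Col3a1, Col4a1, Col5a2 and Col6a3. No chain had a positive slope past the threshold on the hepatocyte score (2.19% of genes), where Col27a1 at 1.91 ± 0.70 was the 1 chain at an unadjusted p under 0.05 (0.0104, adjusted p 0.110), or on the cholangiocyte score (0.0075% of genes, and 9 chains unadjusted).

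**Figure D3:**
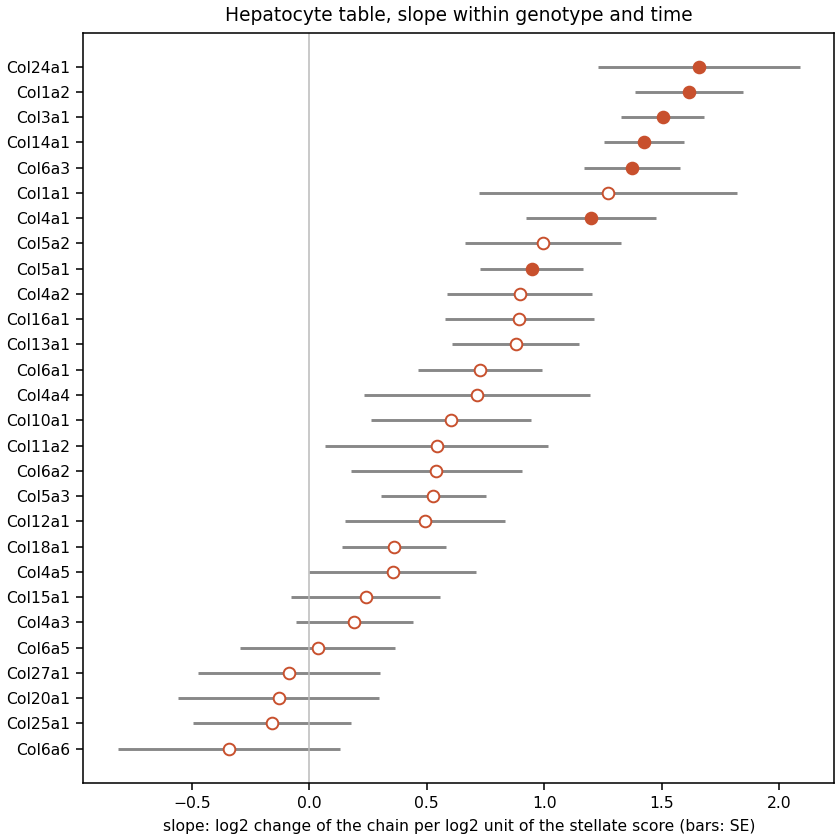
Slope of each of the 28 tested chains on the stellate score in the hepatocyte table, in log2 units of the chain per log2 unit of the score, with bars of 1 SE and filled points where the adjusted p was under 0.05. Col24a1, Col1a2, Col3a1, Col14a1, Col6a3, Col4a1 and Col5a1 are filled, and Col27a1 and Col6a5 sit near 0. Col6a5 was near the floor in all Control and RevDKO libraries, which could show little slope for it. Col24a1, with a mean of 2.404 RPKTM, was also low.

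With the stellate score as a term of the fit, the hepatocyte calls split. All 4 chains that passed in RevDKO minus Control still passed, at -3.02 for Col27a1, 0.72 for Col5a3, -1.0 for Col15a1 and -0.91 for Col12a1 (adjusted p from 3.88e-09 to 0.022). In RevScapTKO minus RevDKO only Col6a5 of the 12 chains still passed, at 2.34 ± 0.30 (adjusted p 2.01e-06), and Col6a5 is the chain that passed the filter through RevScapTKO alone. Col5a3 went from 0.70 to 0.37 (adjusted p 0.393). Col3a1 fell from 1.26 to 0.33 there, Col1a2 from 1.07 to 0.07, Col6a3 from 1.05 to 0.20 and Col4a1 from 0.66 to -0.082. Other calls were lost with a similar or larger difference, as Col25a1 went from -0.88 to -0.78 ± 0.31 and Col6a6 from 0.86 to 1.07 ± 0.43. The share of all genes passing with a score in the fit was not computed, so these counts do not set the chains apart from other genes. In RevScapTKO minus Control Col27a1 (-3.04), Col5a3 (1.09) and Col6a5 (2.80) passed and the other 11 did not. With the endothelial or the macrophage score in place of the stellate score, Col6a5, under the same limit, was likewise the only chain of RevScapTKO minus RevDKO to pass. The cholangiocyte score, an alternative added after seeing the data, also left Col6a5 alone there, and in RevDKO minus Control all 4 chains passed with it. The scores themselves differ between these genotypes, with a mean stellate score of 5.61 in Control, 5.82 in RevDKO and 6.44 in RevScapTKO, so that a chain whose level changed inside stellate cells and a chain brought by more stellate RNA cannot be told apart by this fit.

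**Figure D4:**
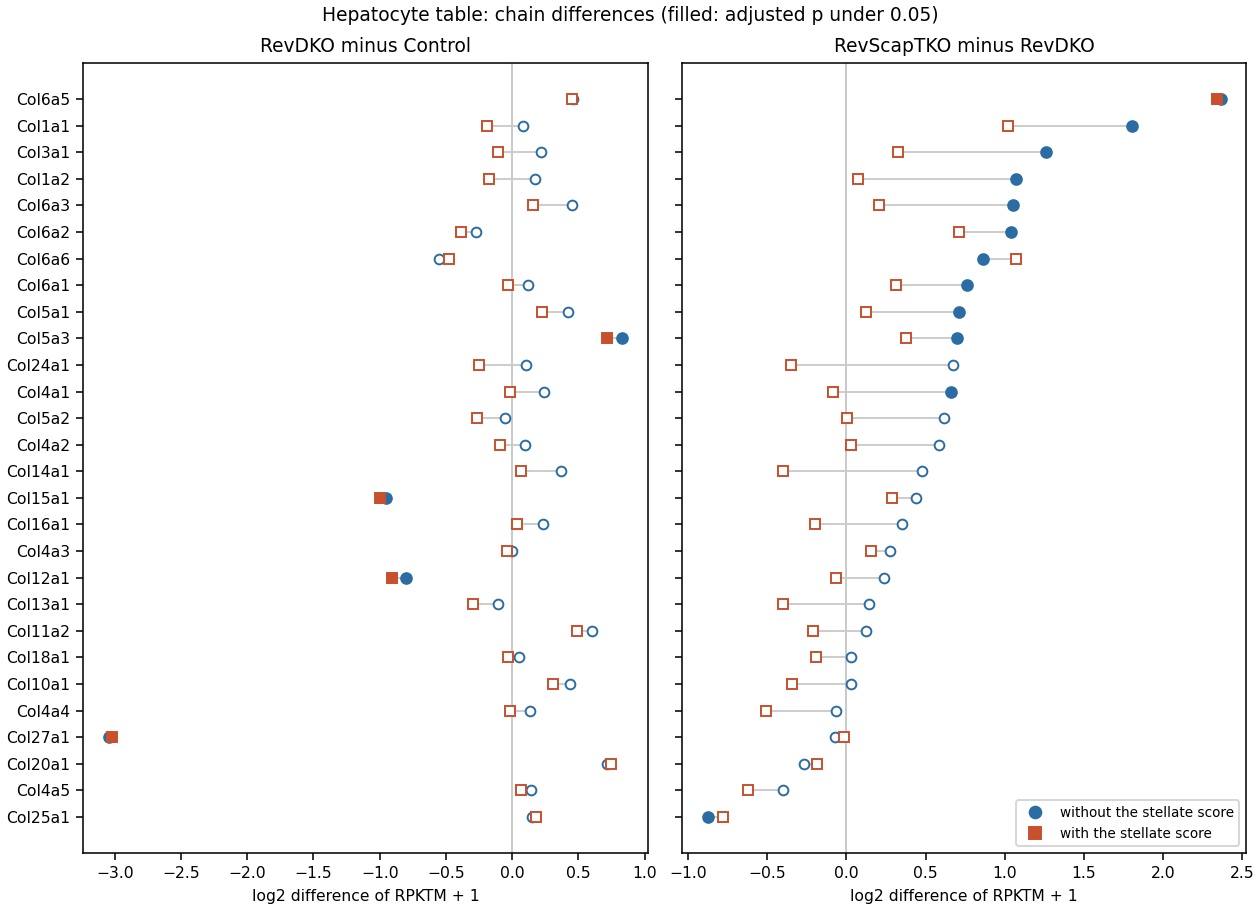
Log2 differences of the 28 tested chains in the hepatocyte table for RevDKO minus Control (left) and RevScapTKO minus RevDKO (right), without (circles) and with (squares) the stellate score in the fit, filled where the adjusted p was under 0.05. Col27a1 stays at -3.04 and -3.02 on the left, whereas on the right only Col6a5 is filled with both fits.

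The level of each library shows the same split. Col3a1 lay between 19.11 and 215.4 RPKTM over the 36 hepatocyte libraries and rose along the stellate score. Col27a1 lay in separate bands for Control and RevDKO at every value of the score. Col6a5 was above 3 RPKTM in RevScapTKO libraries with low and with high scores.

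**Figure D5:**
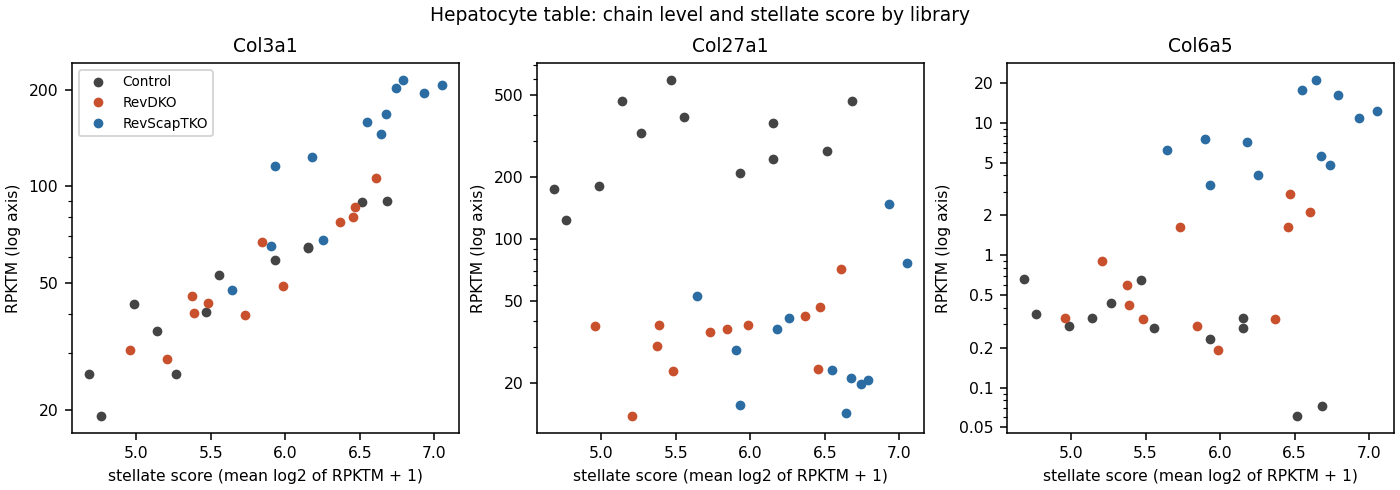
Level of Col3a1, Col27a1 and Col6a5 (RPKTM, log axes) against the stellate score (mean log2 of RPKTM + 1) in the 36 hepatocyte libraries, coloured by genotype. Col3a1 rises along the score in all genotypes, while Control and RevDKO libraries of Col27a1, at medians of 297.7 and 37.46 RPKTM, stay apart along the whole range.

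In the macrophage table the leading differences concerned the chains already seen in hepatocytes. Col27a1 ran from 66.03 to 863.2 RPKTM in Control (median 436.7), from 49.48 to 193.4 in RevDKO (median 115.1) and from 39.92 to 437.4 in RevScapTKO (median 117.2). The ranges overlapped because 2 Control libraries of ZT22, at 66.03 and 72.38, lay within the RevDKO range, the former in one of the libraries high in Alb. RevDKO minus Control was -1.69 ± 0.36 (adjusted p 0.0143). Col5a3 ran from 38.81 to 434.5 RPKTM in Control (median 147.1), from 253.5 to 774.1 in RevDKO (median 468.0) and from 193.6 to 2643 in RevScapTKO (median 1023), and RevDKO minus Control was 1.71 ± 0.31 (adjusted p 0.00258). These were the only chains of 32 to pass in that contrast, 1 higher and 1 lower, where 0.574% of 13947 genes passed, 0.402% higher and 0.172% lower. The median over the 32 chains was 0.30 log2 against -0.04 over all genes. Without the 3 libraries high in Alb, Col27a1 differed by -1.75 (adjusted p 0.0147) and Col5a3 by 1.64 (adjusted p 0.000958), and without the filter on low values the Col27a1 call was lost.

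Col6a5, Col1a1, Col6a6 and Col3a1 were higher in RevScapTKO than in RevDKO macrophage libraries. These were 4 of 32 chains, 2 of 9 fibrillar and 2 of 5 beaded filament chains, and none was lower, where 3% of genes passed, 1.23% higher and 1.78% lower. Col6a5 ran from 0.055 to 6.716 RPKTM in RevDKO (median 2.389) and from 2.535 to 18.59 in RevScapTKO (median 12.39), a difference of 1.92 ± 0.33 (adjusted p 0.000321). Col1a1 ran from 10.54 to 50.54 in RevDKO (median 27.89) and from 12.49 to 237.8 in RevScapTKO (median 93.6), a difference of 1.58 ± 0.34 (adjusted p 0.00501). Col6a6 differed by 1.53 ± 0.33 (adjusted p 0.00422) and Col3a1 by 0.88 ± 0.21 (adjusted p 0.0146), and all 4 pairs of groups overlapped (0.00717% of genes had all 12 RevScapTKO libraries above all 12 of RevDKO). Col6a6 exceeded 5 RPKTM in only 5 of 36 libraries, none of them RevDKO, so RevDKO gave it no entry to the test. Its mean was 1.886 RPKTM, near the floor. It was tested in 10 alternative fits, where Col6a5, Col1a1 and Col3a1 were tested in 12. Col5a3 was 1.02 ± 0.31 higher without passing (adjusted p 0.0609), and Col27a1 differed by 0.16 ± 0.36 with a 95% interval from -0.57 to 0.89. Against Control, 6 chains were higher and 1 lower, where 3.76% of genes passed, 2.38% higher and 1.38% lower. These were Col5a3 (2.72 ± 0.31, adjusted p 2.03e-07), Col6a5 (2.30), Col1a1 (1.89), Col6a3 (1.24), Col3a1 (1.21), Col1a2 (1.08) and, lower, Col27a1 (-1.54 ± 0.36, adjusted p 0.00975).

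RNA of other cells was present in the macrophage table too, in a different pattern. No stellate, endothelial or macrophage marker passed in any of the 3 contrasts, although 14 stellate markers passed the filter with a summed median of 1354 RPKTM for Control, 1558 for RevDKO and 1607 for RevScapTKO. Hepatocyte markers were high in every library, with a median Alb of 73300 RPKTM, and 3 of 12 were lower in RevScapTKO than in RevDKO. No chain passed on the stellate score, where 0.0143% of genes did (13 chains had a positive slope at an unadjusted p under 0.05). Col27a1 and Col5a3 were among these 13, at 1.93 ± 0.52 (unadjusted p 0.000851, adjusted p 0.133) and 1.5 ± 0.46 (unadjusted p 0.00279, adjusted p 0.189). The share of all genes at an unadjusted p under 0.05 was not computed for any slope, so such counts do not set the chains apart. On the hepatocyte score 7 chains had a positive slope, where 7.59% of genes did: Col15a1, Col20a1, Col5a1, Col5a3, Col24a1, Col18a1 and Col4a1. The cholangiocyte score gave 12 positive slopes (6.09% of genes), for Col5a1, Col5a3, Col15a1, Col16a1, Col27a1, Col6a3, Col1a1, Col3a1, Col1a2, Col24a1, Col11a2 and Col20a1. Its summed markers had a median of 41.83 RPKTM for Control, 48.43 for RevDKO and 87.77 for RevScapTKO, and of the 2 markers tested Spp1 was higher in RevScapTKO than in RevDKO (1.60, adjusted p 0.0109) and Sox9 higher than in Control (1.91, adjusted p 0.0154). The endothelial and the portal fibroblast scores gave no positive slope (1.34% and 0.0215% of genes, and 1 and 0 chains unadjusted). On the hepatocyte score the slope of Col18a1 was 1.14 ± 0.28 (adjusted p 0.0101), that of Col5a3 1.28 ± 0.41 (adjusted p 0.0353) and that of Col27a1 1.3 ± 0.50 (adjusted p 0.0719). On the macrophage score 12 chains had a negative slope, where 13.5% of genes did, among them Col27a1 at -0.66 ± 0.19 (adjusted p 0.00825), Col5a3 at -0.69 ± 0.14 (adjusted p 0.000499) and Col18a1 at -0.46 ± 0.11 (adjusted p 0.0016). No chain had a positive one, where 14.1% of genes did, and at an unadjusted p under 0.05 there were 0. The summed macrophage markers had a median of 18790 RPKTM for Control, 9823 for RevDKO and 10440 for RevScapTKO, with overlapping ranges from 3471 to 39970 over the table.

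In RevDKO minus Control both macrophage calls passed with the stellate, the hepatocyte or the cholangiocyte score in the fit. The fit with the macrophage score is not given here, although both chains had negative slopes on that score. Its mean was 9.83 in Control and 9.28 in RevDKO, and its part in these 2 calls is therefore left unexamined. With the stellate score, Col27a1 was -2.05 ± 0.32 (adjusted p 0.00038) and Col5a3 1.4 ± 0.28 (adjusted p 0.0116) in RevDKO minus Control. With the hepatocyte score they were -1.90 ± 0.34 (adjusted p 0.00221) and 1.5 ± 0.28 (adjusted p 0.00341). In RevScapTKO minus Control the Col27a1 call was lost with the hepatocyte score. That score raised the number of chains past the threshold from 4 to 13 in RevScapTKO minus RevDKO and from 7 to 14 in RevScapTKO minus Control. The share of all genes passing in fits with a score was not computed. With the cholangiocyte score, added after seeing the data, both chains passed in RevDKO minus Control, Col6a5 alone of the 4 chains passed in RevScapTKO minus RevDKO, and Col5a3, Col6a5 and Col27a1 of the 7 passed in RevScapTKO minus Control. The part of hepatocyte RNA in the macrophage values of Col27a1 and Col5a3 was not tested beyond these fits.

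The time of day was examined next, as a 24 h pattern within each genotype. In Control hepatocytes 4 of 28 chains had a 24 h pattern, where 7.83% of genes did. Col25a1 fell from 10.84 ± 2.87 RPKTM (SD, n = 3) at ZT4 to 1.769 ± 1.5 at ZT16 (adjusted p 0.00328). Col14a1 rose from 79.12 ± 15.5 at ZT4 to 350.1 ± 146 at ZT22 (adjusted p 0.0103), and Col13a1 and Col1a2 were also lowest at ZT4, at 9.196 and 11.42 RPKTM, and 31.57 at ZT16 and 35.77 at ZT22 at their highest. Of these, Col14a1 and Col1a2 were chains that moved with the stellate score. That score also differed by time in Control hepatocytes, at 4.688 to 4.989 at ZT4 and 5.93 to 6.683 at ZT22. Its part in the 24 h patterns was not tested. In RevDKO 2 chains passed, Col13a1 and Col25a1, where 3.65% of genes did, and in RevScapTKO none did (0.405% of genes, and 6 chains and 17.3% of genes at an unadjusted p under 0.05). No difference in the 24 h pattern passed for any chain, in RevDKO minus Control (0.158% of genes, and 2 chains and 4.69% of genes unadjusted) or in RevScapTKO minus RevDKO (0% of genes, and 1 chain and 4.89% of genes unadjusted). Col27a1 in Control averaged 159.6 ± 31.3, 395.1 ± 69.6, 401.4 ± 176 and 314.5 ± 134 RPKTM at ZT4, ZT10, ZT16 and ZT22 without passing (adjusted p 0.243).

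In ScapKO hepatocytes Col27a1 did pass, alone of 24 chains, where 1.92% of genes did (5 chains and 14.6% of genes at an unadjusted p under 0.05). It averaged 176.0 ± 6.38, 396.0 ± 123, 578.0 ± 145 and 449.7 ± 131 RPKTM at the 4 times (SD, n = 3 each), with a peak-to-trough difference of 1.69 log2 and a fitted peak at 16.4 h (adjusted p 0.0144). The ZT4 libraries, at 168.6 to 180.2 RPKTM, lay below all others. The call was lost when any of the 3 ZT4 libraries, or ZT16 replicate 2 or 3, was left out, and ZT16 replicate 3 is the library high in Xist. It held without ZT22 replicate 2, the library rich in stellate markers, where Col4a1 and Col4a2 passed as well. In the macrophage tables no chain had a 24 h pattern in any genotype. The share of all genes was 0.0502% in Control, 2.08% in RevDKO, 0.0717% in RevScapTKO and 0% in ScapKO, and the chains at an unadjusted p under 0.05 numbered 4, 1, 2 and 11, beside 7.29%, 18.1%, 3.58% and 10.2% of genes. No changed pattern passed in macrophages (0% of genes in both contrasts, and 0 chains unadjusted beside 5.12% and 3.27% of genes).

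The ScapKO tables, which have no Control beside them, were also led by Col18a1. In hepatocytes the means were 7783 RPKTM for Col18a1, 399.9 for Col27a1, 254.0 for Col14a1, 169.7 for Col5a3, 157.1 for Col4a1 and 121.8 for Col4a2. Col27a1 thus stood in second place here, at 168.6 to 672.2 RPKTM (median 374.2). It stood behind Col18a1, Col14a1, Col5a3 and Col4a1 in the other hepatocyte table, whose order pooled Control, RevDKO and RevScapTKO. In Control hepatocytes alone Col27a1 averaged 159.6, 395.1, 401.4 and 314.5 RPKTM at ZT4, ZT10, ZT16 and ZT22. Col14a1 averaged 79.12, 134.2, 246.3 and 350.1 RPKTM there, so the pooled order does not set ScapKO apart from Control. In ScapKO macrophages the means were 2151 for Col18a1, 823.1 for Col27a1, 410.7 for Col5a3, 267.0 for Col14a1, 209.0 for Col4a1 and 162.8 for Col4a2. The means of this table lean on the ZT22 replicate 2 library, where Col18a1 stood at 8677 and Col27a1 at 3581 RPKTM against medians of 1169 and 555.3. The levels cannot be set against those of Control by a test.

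Partner chains of 1 trimer, compared per length within a table, kept unequal levels. Col4a1 and Col4a2, which share a head-to-head start region on mm9 chr8 with an overlap of 22 bases and whose reads there cannot be assigned without strand, stood at a ratio of means of 1.51 in hepatocytes, at 1.39 in Control, 1.48 in RevDKO and 1.61 in RevScapTKO. Col1a1 stood below Col1a2 in hepatocytes, at a ratio of 0.199 in Control, 0.224 in RevDKO and 0.358 in RevScapTKO, although type I trimers hold more α1 than α2 chains. In the macrophage table this ratio was 0.648, 0.59 and 1.18. Col6a1 exceeded Col6a2 by a ratio of 2.77 in Control hepatocytes, 3.59 in RevDKO and 2.96 in RevScapTKO. No test was made of these ratios.

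The other genes of collagen biology were counted from a list of 54 modifying enzymes, chaperones, export factors, proteases, crosslinkers and receptors. In hepatocytes 38 were tested, and in RevDKO minus Control only Loxl4 passed, 1 of 38 where 4.43% of all genes passed. Loxl4, a lysyl oxidase-like enzyme that crosslinks collagen, rose from a mean of 50.67 to 710.3 RPKTM (4.37 ± 0.17, adjusted p 8.98e-19). In RevScapTKO minus RevDKO 16 were higher and 0 lower, where 13.5% and 12.7% of all genes were. The largest were the collagen receptor Ddr1 (1.40), the propeptide protease Adamts14 (1.1), the gelatinase Mmp2 (1.1), the immune collagen receptor Lair1 (1.05) and the prolyl hydroxylation cofactor Crtap (0.76). Stellate, endothelial and macrophage markers were higher in the same libraries, as given above, and their part in these differences was not tested. In RevScapTKO minus Control 16 were higher and 2 lower, where 17.3% and 18.7% of all genes were, led by Loxl4 (4.13), the endocytic receptor Mrc2 (1.4), the glycosyltransferase Colgalt2 (-1.32), Crtap (1.24) and Mmp2 (1.18).

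Of these genes 45 were tested in the macrophage table. Loxl4 alone passed in RevDKO minus Control, from a mean of 22.27 to 185.8 RPKTM (3.41 ± 0.23, adjusted p 1e-11), where 0.574% of all genes passed. None passed in RevScapTKO minus RevDKO, where 3% of all genes did. In RevScapTKO minus Control, where 3.76% of all genes passed, Loxl4 (3.04), Itga10 (1.18) and the propeptide protease Bmp1 (0.85) were higher and the protease enhancer Pcolce2 (-1.25) was lower.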

How the data were processed

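Ribosome-depleted, stranded total RNA libraries were sequenced by the authors. Their processing notes name STAR, HOMER and the mm9 genome without versions in the sources used here. The deposited values are RPKM-type values, namely reads per kilobase scaled to a library size 10 times that of RPKM (RPKTM) for each RefSeq transcript, and the authors quantile-normalized them separately in each of 4 tables. Whether counting used strand is not stated. Sequencing depth cannot be recovered, so that precision rests on the 3 libraries of each genotype, cell type and time point. All 96 libraries were used, and 0 columns of values were left out. Titles were followed where a ScapKO hepatocyte label named another cell type.

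Each gene was represented by its transcript of highest mean. Values were analysed as log2(RPKTM + 1), which understates changes of low genes. Genes over 5 RPKTM in at least 3 libraries of a table were fitted with limma 3.58.1 (R 4.3.3) with a mean for each genotype and time point, and genotype contrasts averaged the 4 time points. The 24 h pattern was a cosine and sine term, slopes came from adding a marker score, and calls were made at a Benjamini-Hochberg adjusted p under 0.05. Tests are two-sided. The scripts were tested on simulated data with 200 changed genes. Python 3.11.15, pandas 2.3.3, numpy 2.4.6 and matplotlib 3.10.9 were used for tables and figures.

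The chains and marker lists were chosen with earlier results of these data known. Values are given for the 6 chains of highest mean in each table, for chains past the threshold in a genotype contrast (at most the 12 of largest change, with every chain of a count of 5 or fewer), for Col27a1, and for up to 5 pathway genes a contrast. The chains whose promoters are printed, Col24a1 and Col13a1, and the partner ratios were chosen after their values were seen. Alternatives were pseudocounts of 0.1 and 10, no filter and a filter of 10 RPKTM, and marker scores as covariates (the cholangiocyte score was added after seeing the data). Others were a replicate block, only the 2 genotypes of a contrast in the fit, and leaving out libraries.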

Additional observations from a re-analysis of the deposited data

How the results depend on the processing

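Of the counts of chains past the threshold, 143 of 161 values under other settings and 653 of 672 with 1 library left out stayed within 1.5 times the reported count. In hepatocytes, RevScapTKO minus RevDKO fell from 12 chains to 1 with the stellate, the endothelial or the macrophage score as a covariate, and RevScapTKO minus Control fell from 14 to 3, 3 and 5. For fits with a score the share of all genes passing was not computed. With the stellate score Col4a1 turned to -0.082 in RevScapTKO minus RevDKO, and Col14a1, Col1a2, Col4a1 and Col4a2 to -0.34, -0.099, -0.095 and -0.063 in RevScapTKO minus Control. With the endothelial score Col4a1 turned to -0.019 in the former, and Col14a1, Col4a1 and Col4a2 to -0.15, -0.036 and -0.043 in the latter. With the macrophage score Col27a1 turned to 0.42 in RevScapTKO minus RevDKO. A pseudocount of 10 gave 1 chain with a 24 h pattern in RevScapTKO hepatocytes (Col6a5) and no filter gave 0 in ScapKO hepatocytes. In macrophages no filter gave 1 chain in RevDKO minus Control (Col5a3), the hepatocyte score 13 and 14 chains in the RevScapTKO contrasts, 4 core stellate markers 1 chain with a slope (Col4a2), and dropping the 3 libraries high in Alb 1 chain with a Control 24 h pattern (Col6a6) and -0.018 for Col27a1 in RevScapTKO minus RevDKO. Adding the cholangiocyte score, an alternative picked once the data had been seen, gave 1 and 4 chains in the RevScapTKO contrasts in hepatocytes and 1 and 3 in macrophages, and turned Col27a1 to -0.54 in RevScapTKO minus RevDKO macrophages. Beyond these constructions the cause was not tested.

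With 1 library left out, hepatocyte counts ran from 3 to 5 (RevDKO minus Control), 10 to 14 (RevScapTKO minus RevDKO), 13 to 17 (RevScapTKO minus Control) and 7 to 9 (stellate slope). For 24 h patterns they ran from 2 to 6 in Control, 0 to 3 in RevDKO (0 without ZT4 replicate 2 or ZT16 replicate 3, and 1 without ZT22 replicate 1) and 0 to 3 in ScapKO. The Control count was 2 without any of the ZT4 libraries or ZT16 replicate 2 or 3. Macrophage counts ran from 2 to 2, 4 to 7 and 7 to 8 in the same contrasts (7 without RevDKO ZT16 replicate 3 or RevScapTKO ZT10 replicate 1), 0 to 2 for the slope (1 without Control ZT4 replicate 2, 2 without RevScapTKO ZT16 replicate 1) and 0 to 1 for the Control pattern (1 without ZT22 replicate 1). Col27a1 in RevScapTKO minus RevDKO ran from -0.25 to 0.16 in hepatocytes and from -0.061 to 0.41 in macrophages. Replicate numbers were not taken as pairs, since the labels tie them to no shared animal or day and not every same-numbered pair correlated above 0.1. Correlations of same-numbered libraries ran from -0.273 to 0.534 in hepatocytes and from -0.199 to 0.53 in macrophages. Their medians were 0.0191 and 0.0829 against -0.0107 and -0.0399 for other numbers. Still, 23 and 28 of 36 libraries correlated best with their own number, although the 3 numbers were equally common among libraries of other groups. Libraries of a number thus shared variation in the data, and the labels do not give its source. With a replicate block the hepatocyte contrasts gave 4, 14 and 16 chains and the macrophage contrasts 2, 6 and 8, and 1 chain (Col14a1) gained a 24 h pattern in RevDKO macrophages. Unknown depth limits the low chains, such as Col6a5 and Col6a6, most.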
